A study of Oryza sativa Japonica Group with 20 samples.

Results

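The plasma membrane intrinsic proteins (PIPs) of rice were followed here across all 10 mRNA libraries of an arsenite experiment. The 10 genes PIP1-1, PIP1-2, PIP1-3 and PIP2-1 to PIP2-7, so spelled in RefSeq beside forms such as OsPIP2;4, were taken by their MSU locus identifiers from tables of 57624 loci, and all 10 were present. They are 3 PIP1 and 7 PIP2 genes. The rule uses identifiers and no measured value, although the family was proposed with earlier results of these data known. The RefSeq gene table of the ASM3414082v1 assembly lists all 10 names on the chromosome that the identifier gives. Seedlings of the japonica cultivar Nipponbare, 14 days old and grown in nutrient solution, were kept in sodium arsenite at 20 or 80 µM for 6 or 24 h, or harvested untreated at 0 h. Shoots and roots were collected separately, which gave 5 conditions per tissue with 1 mRNA library each and therefore no replicate of any group. The labels do not say how many plants went into a library.

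PIPs are aquaporins, membrane channels that let water pass along an osmotic gradient, and in roots they carry much of the water that crosses cells on its way to the xylem. PIP2 proteins are effective water channels on their own, whereas PIP1 proteins of several plants reach the plasma membrane mainly as partners of a PIP2 protein. Some rice PIP2 proteins, among them PIP2-4, PIP2-6 and PIP2-7, also let arsenite through when made in frog oocytes. The best known arsenite entry channel of rice roots, Lsi1, belongs to another aquaporin subfamily and bears the systematic name NIP2-1. The abundance of several rice root PIP transcripts is also known to vary over the day.

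Values are RPKM, reads per kilobase of gene scaled to the library's reads, and the libraries summed to between 313836 and 369084 RPKM. The value of 1 read was 0.779 to 1.38 times that of untreated roots, which gives the libraries' depth relative to each other but not in reads. All 12 leaf photosynthesis genes checked were above 0 in every library, and they summed to between 4505 and 10437 RPKM in shoots and between 27.9 and 619.2 RPKM in roots. The highest root sum was that of the untreated library, against 27.9 to 154.9 RPKM in treated roots. The 9 root uptake genes summed to between 6.2 and 14.2 RPKM in shoots. In roots they summed to 357 RPKM untreated and to 101, 55.6, 9.1 and 14.2 RPKM after 20 µM for 6 h, 20 µM for 24 h, 80 µM for 6 h and 80 µM for 24 h, which is the order kept below for treated libraries. The files of the shoot libraries labelled 20 µM 6 h and 20 µM 24 h carry each other's code in their headers. A clock readout, log2(RPKM + 1) of the dawn gene LHY minus the mean of 6 day-phase genes, was 3.20 and 0.41 in these libraries, against 3.19 in untreated shoots at 0 h and 0.43 in shoots at 80 µM and 6 h. The labels were kept, and shoot values at 20 µM carry this doubt about their hour.

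Summed over the 10 genes, which RPKM allows because it is per length, PIP transcripts were abundant in both tissues. The sum was 789.9 RPKM in untreated shoots and 1021 RPKM in untreated roots, or 0.239% and 0.325% of all RPKM in those libraries. In roots the sum was 395.5, 666.0, 191.0 and 193.8 RPKM in the treated libraries. These are 38.7%, 65.2%, 18.7% and 19.0% of the untreated value, and 45.8%, 73.1%, 38.6% and 25.7% when libraries were scaled by the median ratio of their genes. In shoots the treated sums were 815.8, 1026, 998.1 and 595.4 RPKM, or 103%, 130%, 126% and 75.4% of the untreated value. The last of these shoot values turned to 117.6% after the same scaling, so its direction depends on the scaling. The PIP1 genes made up 60.7% of the root sum untreated and 70.1%, 69.4%, 79.7% and 77.5% in treated roots. In shoots that share was 55.3% untreated and 46.7%, 44.3%, 51.6% and 62.2% treated.

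**Figure D1:**
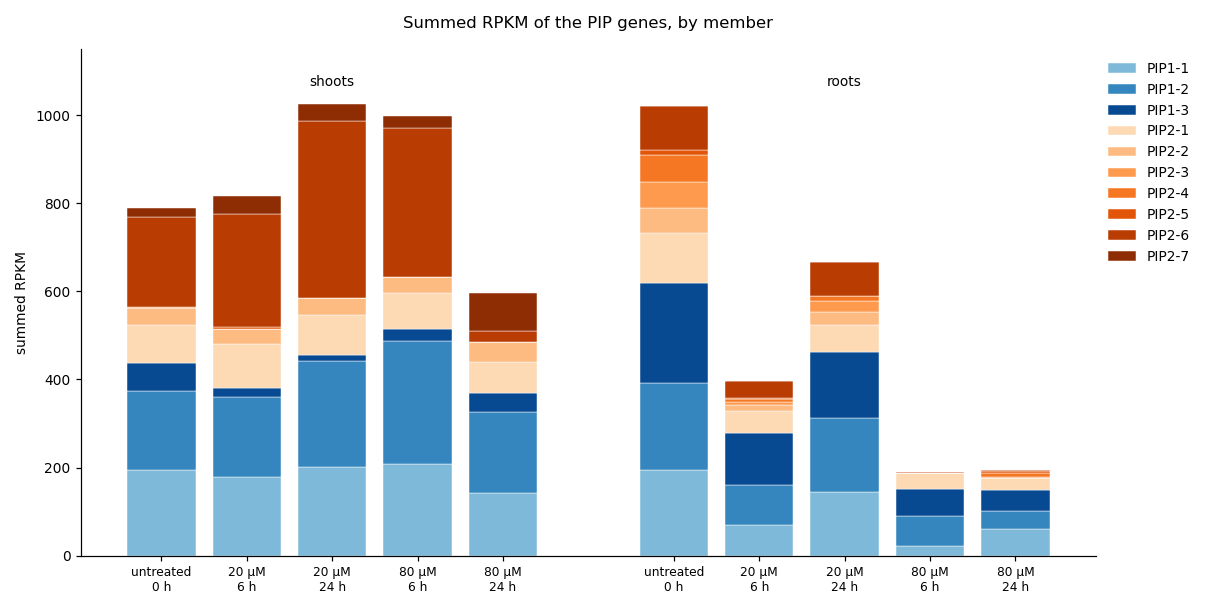
Summed RPKM of the PIP genes in each library (vertical axis), split by member, with shoots on the left and roots on the right and 1 library per bar. Root bars stand at 191.0 to 666.0 RPKM in the treated libraries, against 1021 RPKM untreated, while shoot bars stand between 595.4 and 1026 RPKM.

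The members divide into genes found in both tissues and genes found nearly in 1 tissue alone. PIP2-7 (LOC_Os09g36930), whose protein passes arsenite in oocytes, was listed at 0 in each of the 5 root libraries. In shoots PIP2-7 was at 20.5 RPKM untreated, and the treated shoots had 40.5, 38.8, 27.5 and 84.4 RPKM. PIP2-3 (LOC_Os04g44060) showed the reverse, with a listed 0 in each of the 5 shoot libraries and 57.5 RPKM in untreated roots. PIP2-4 (LOC_Os07g26630) was at 3.1 RPKM in untreated shoots, at a listed 0 in all 4 treated shoot libraries, and at 61.9 RPKM in untreated roots. PIP2-5 (LOC_Os07g26660), a channel known from the endodermis of rice roots, was at most 2.5 RPKM in shoots and 11.5 RPKM in untreated roots. PIP2-4, PIP2-5 and PIP2-1 (LOC_Os07g26690) are neighbours on chromosome 7 with 0 other protein-coding genes between them in RefSeq. Although adjacent, PIP2-1 was at 87.5 RPKM in untreated shoots and 112.5 RPKM in untreated roots, unlike its neighbours. The sources used here do not say how reads shared by near-identical copies were counted, so the split between close PIP copies is uncertain.

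Shoots were compared with roots in limma, with the 5 conditions as pairs and Benjamini-Hochberg adjustment over all genes. Of 18667 genes tested 16.4% were higher and 12.4% lower in shoots, and of the 10 PIP genes 2 were higher and 3 lower. PIP2-7, PIP2-3 and PIP2-4 among them reached 5 RPKM in a single tissue. The filter thus fixed their direction, and their p does not test it. PIP2-7 was higher in shoots by 5.27 ± 0.41 on the log2(RPKM + 1) scale (SE, limma adjusted p = 2.6e-05) and in 5 of 5 conditions. PIP2-6 (LOC_Os04g16450), another arsenite-permeable channel, was higher in shoots by 3.14 ± 0.64 (limma adjusted p = 0.0042), also in 5 of 5 conditions. It had 204.8, 257.2, 402.0, 338.8 and 25.0 RPKM in shoots, against 99.8, 38.2, 77.3, 2.7 and 2.1 RPKM in roots, untreated first and then in the treated order. PIP2-6 was thereby the most abundant PIP transcript in the shoot libraries other than 80 µM 24 h, where PIP1-2 was the highest with 182.8 RPKM. By single libraries, PIP2-6 and PIP2-7 were also the 2 members at least 2-fold higher in shoots in all 5 conditions, against 8.11% of all genes, and 0 were at least 2-fold lower in all 5, against 5.2%. PIP2-7 reached 5 RPKM in shoots alone, so its direction was fixed by the filter, and the size of its estimate depends on the pseudocount, at 8.56 with a pseudocount of 0.1 and 3.11 with 5.

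The 3 members lower in shoots were PIP1-3, PIP2-3 and PIP2-4. PIP1-3 (LOC_Os02g57720), also known as RWC3, had 62.8, 20.5, 12.2, 27.9 and 44.8 RPKM in shoots, against 227.5, 117.1, 148.2, 61.8 and 48.7 RPKM in roots. Its log2 difference was −1.81 ± 0.47 (limma adjusted p = 0.015). It was negative in 5 of 5 conditions, although the −0.12 at 80 µM and 24 h turned to 0.19 after median ratio scaling. The difference was −2.85 ± 0.81 for PIP2-3 (limma adjusted p = 0.024) and −2.83 ± 0.59 for PIP2-4 (limma adjusted p = 0.0049). For each it was negative in 4 of 5 conditions, since both tissues were listed at 0 at 80 µM and 6 h. Both genes reached 5 RPKM in roots alone, which fixes their direction here. Their estimates ran from −5.19 to −1.53 for PIP2-3 and from −4.81 to −1.53 for PIP2-4 between pseudocounts of 0.1 and 5. With no filter on low values PIP2-3 was no longer called, at a limma adjusted p of 0.0613. With the condition 20 µM 6 h or 20 µM 24 h left out, 1 of the 3, PIP2-4, was still called lower. Called lower among all genes were then 1478 of 18330 and 1673 of 18269. With both left out, 3 members were higher and 0 lower, PIP2-2 being called beside PIP2-6 and PIP2-7. Of 17772 genes 1551 were then higher and 1120 lower. With the untreated condition left out, 5 of the 9 members tested were higher and 2 lower, against 2935 and 2274 of 17905 genes. The residual of this fit measures how a tissue difference varies over conditions, not a spread between replicates.

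PIP1-1 (LOC_Os02g44630), PIP1-2 (LOC_Os04g47220), PIP2-1 and PIP2-2 (LOC_Os02g41860) differed by less than 2-fold between the tissues in untreated plants. They were at 194.8, 179.3, 87.5 and 37.1 RPKM in shoots, against 195.3, 196.6, 112.5 and 58.5 RPKM in roots. In all 4 treated conditions shoots stood higher than roots for each of the 4. At 80 µM and 6 h PIP1-1 was at 208.8 RPKM in shoots and 22.7 RPKM in roots, and PIP2-2 at 34.4 RPKM in shoots and 0.8 RPKM in roots. None of the 4 passed over all conditions, with limma adjusted p between 0.0557 and 0.145.

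**Figure D2:**
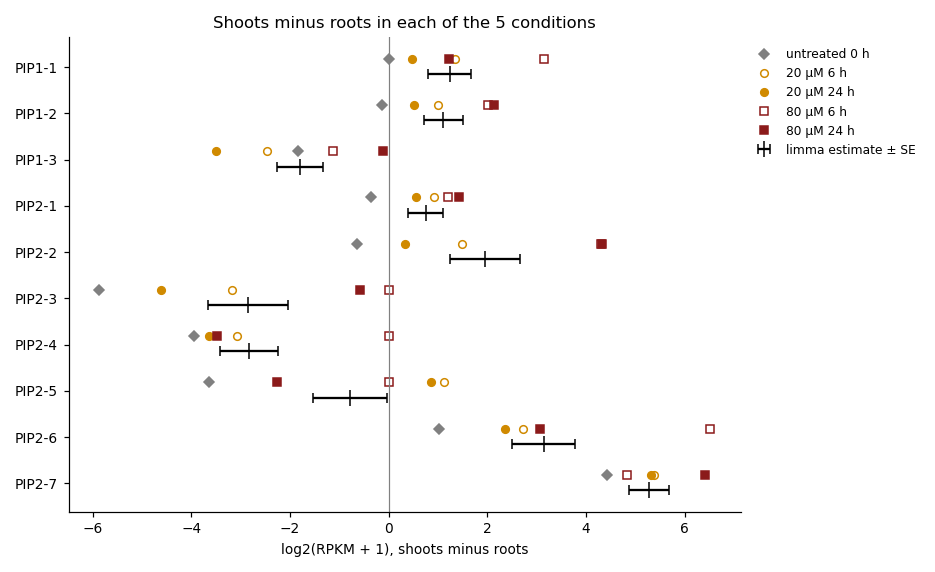
Difference of log2(RPKM + 1), shoots minus roots (horizontal axis), for each PIP gene (rows), with 1 symbol per condition and the limma estimate with its SE in black. PIP2-7 and PIP2-6 lie right of 0 in all 5 conditions, at estimates of 5.27 and 3.14, and PIP1-3 lies left of 0 in all 5, at −1.81, although its value of −0.12 at 80 µM and 24 h turned to 0.19 after median ratio scaling.

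In roots every PIP gene that reached 5 RPKM was lower in each of the 4 treated libraries than in the untreated library. That is 9 of 9 genes, PIP2-7 being listed at 0 throughout, whereas 38.1% of 15414 root genes were lower in all 4. It held for 9 of 9 in each library after median ratio scaling. PIP2-5 reached 5 RPKM in untreated roots alone, so it had to be lower, and the statement covers 8 of 8 genes without it. In the single 80 µM libraries 5 members at 6 h and 4 at 24 h entered through the untreated value alone. At least 2-fold lower were 8 of the 9 at 20 µM and 6 h, against 16.9% of all genes, and 3 of the 9 at 20 µM and 24 h, against 16.6%. At 80 µM it was 9 of 9 at both hours, against 48.7% of all genes at 6 h and 35.9% at 24 h. After median ratio scaling these counts were 6, 3, 6 and 8 of 9 in the order of the libraries, against 11.5%, 13.0%, 29.6% and 25.6% of all genes. PIP1-2, PIP1-3 and PIP2-1 were then under 2-fold at 80 µM and 6 h. At least 2-fold lower in all 4 libraries were 3 of the 9, PIP2-3, PIP2-4 and PIP2-5, against 6.97% of all genes, and 0 were higher, against 4.66%. It was 2 of the 9, PIP2-3 and PIP2-4, after scaling, against 4.25%. With the 20 µM 24 h library left out, 8 of the 9 were at least 2-fold lower in the other 3 treated libraries, against 11.9% of all genes, PIP1-3 being the exception. After scaling PIP1-2 and PIP2-1 fell short as well, at −0.49 and −0.62 on the log2 scale at 80 µM and 6 h. PIP2-5 then fell short too, at −0.99 at 80 µM and 24 h, so this count depends on the scaling. The median of the members' mean log2 differences was −2.88, beside −0.42 over all root genes. No group has a replicate, so these are counts in single libraries and not a test.

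Among the PIP1 genes of roots, the partners of PIP2 channels, the 20 µM libraries differed by hour. PIP1-1 had 195.3 RPKM in untreated roots, and treated roots had 69.8, 144.1, 22.7 and 60.8 RPKM. For PIP1-2 the untreated level was 196.6 RPKM, and the treated levels were 90.5, 169.6, 67.8 and 40.7 RPKM. PIP1-3 was the most abundant PIP of untreated roots with 227.5 RPKM, and the treated roots had 117.1, 148.2, 61.8 and 48.7 RPKM. All 3 were nearest to their untreated value after 24 h in 20 µM, at 73.8%, 86.3% and 65.1% of it. At 80 µM the lowest value was at 6 h for PIP1-1, at 11.6% of untreated, and at 24 h for PIP1-2 and PIP1-3, at 20.7% and 21.4%. By rank of RPKM among all transcripts, PIP1-3 was 1312th at 80 µM and 6 h and 1456th at 80 µM and 24 h, against 52nd in untreated roots.

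The PIP2 genes of roots showed a wider range. PIP2-1, a channel that contributes to root water uptake, was at 112.5 RPKM in untreated roots and at 51.7, 62.4, 35.2 and 25.8 RPKM in treated roots, a mean log2 difference of −1.42 ± 0.56 (SD over the 4 treated libraries). This was the narrowest spread of the 9 genes. PIP2-2 was at 58.5 RPKM in untreated roots, and the treated roots had 12.2, 29.5, 0.8 and 1.3 RPKM, with a mean of −3.22 ± 1.97. The root values of PIP2-6, given above, had a mean of −2.88 ± 2.37. Both 80 µM values of PIP2-2 and PIP2-6 were at most 2.71% of untreated, while the 20 µM 24 h values were 50.4% for PIP2-2 and 77.5% for PIP2-6.

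The 3 genes found mostly in roots reached a listed 0 in at least 1 treated library. PIP2-3 had 57.5 RPKM in untreated roots, and the treated roots had 8.0, 23.4, a listed 0 and 0.5 RPKM. For PIP2-4 the untreated level was 61.9 RPKM, and the treated levels were 7.4, 11.5, a listed 0 and 10.1 RPKM. PIP2-5 was the least abundant of the 9, at 11.5 RPKM untreated, and treated roots had 0.6, a listed 0, a listed 0 and 3.8 RPKM. PIP2-4 and PIP2-5 were higher at 80 µM after 24 h than after 6 h, whereas PIP2-3 was at 0.5 RPKM or less at both hours. Differences that involve a listed 0 are set in size by the pseudocount of 1 and are no folds. In bulk tissue, fewer cells of a type and less RNA per cell cannot be told apart.

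**Figure D3:**
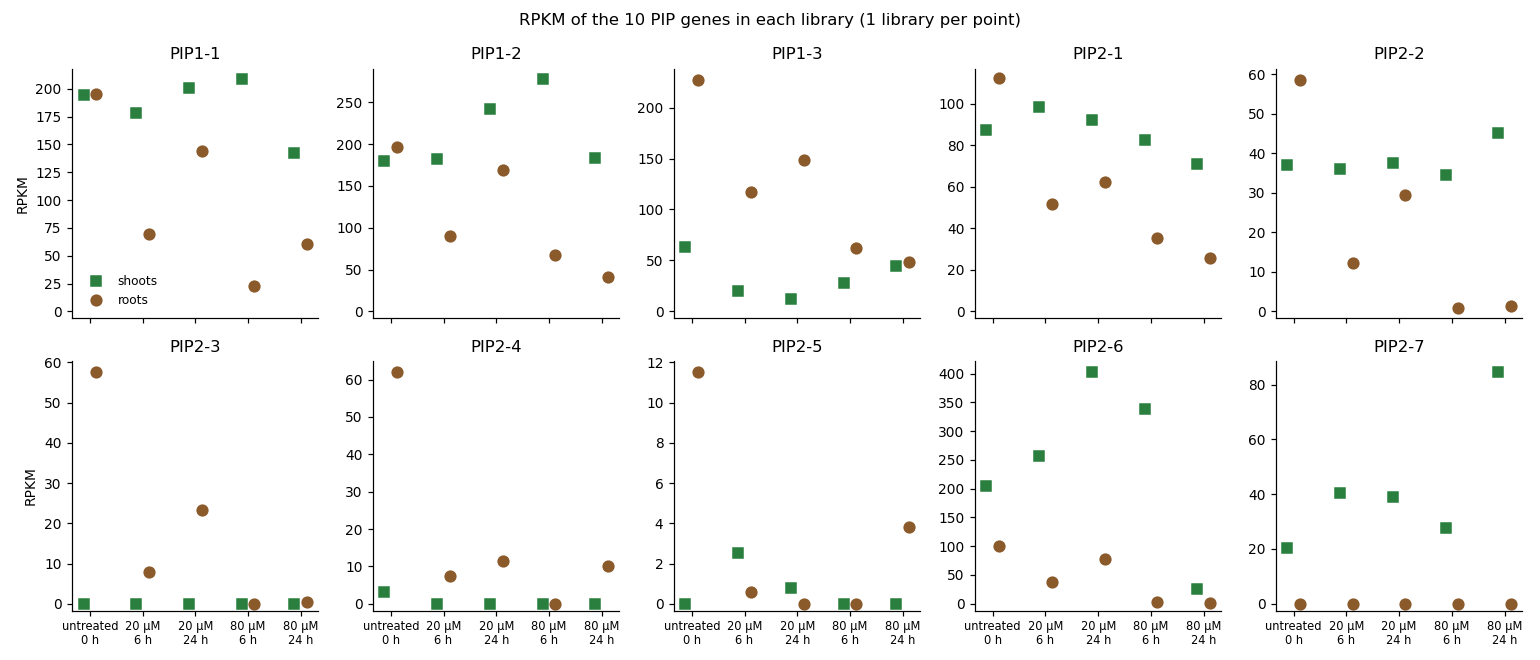
RPKM (vertical axis, own scale per gene) of each PIP gene in each condition, with shoots as squares, roots as circles and 1 library per point. Root values are highest in the untreated library for 9 genes, and PIP2-7 is at 0 in all 5 root libraries while its shoot values run from 20.5 to 84.4 RPKM.

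Within-tissue limma, which fits treatment, dose and time in each tissue with 2 residual degrees of freedom, called 0 of 18667 genes for treatment in roots. At an unadjusted p under 0.05 it held 2196 genes, 11.8% of those tested, and 6 of the 10 PIP genes. PIP2-5 is among the 6, and it reached 5 RPKM in untreated roots alone, so the filter fixed its direction. The lowest limma adjusted p of a member was 0.256, for PIP2-2 with −3.22 ± 0.54 (SE) and for PIP2-3 with −3.78 ± 0.61. The difference between the tissues in the treatment effect, roots minus shoots, was tested in the same fit and also called 0 genes. For PIP2-2 it was −3.25 ± 0.76 with a limma adjusted p of 0.643. For PIP2-3, listed at 0 in all shoot libraries, the contrast is its root value alone and is not given. At an unadjusted p under 0.05 that contrast held 1251 genes, 6.7% of those tested, and 3 PIP genes. These were PIP2-2, PIP2-3 and PIP2-5. PIP2-3 gave its root value alone, and PIP2-5 reached 5 RPKM in untreated roots alone. Of the 3, only PIP2-2 is therefore free of these limits.

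Several measurements moved alongside the root values. The leaf photosynthesis genes were also highest in the untreated root library, and their part in the PIP differences was not tested. The root uptake genes, taken as a whole list, were lower in the 4 treated root libraries, as given above, with 0 of the 9 listed at 0 in untreated roots and 1, 2, 2 and 2 in treated roots. The median log2 difference of all genes was −0.22, −0.21, −0.93 and −0.47 in the treated roots. Set against those medians, the PIP median differed by −1.25, −0.63, −2.72 and −1.77. Untreated plants were harvested at 0 h only, the time of day that recurs at 24 h, so at 6 h treatment and hour cannot be told apart. The clock readout was 2.06 in untreated roots, −0.78 and 1.74 in 20 µM roots at 6 and 24 h, and −1.09 and −0.80 in 80 µM roots at 6 and 24 h.

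**Figure D4:**
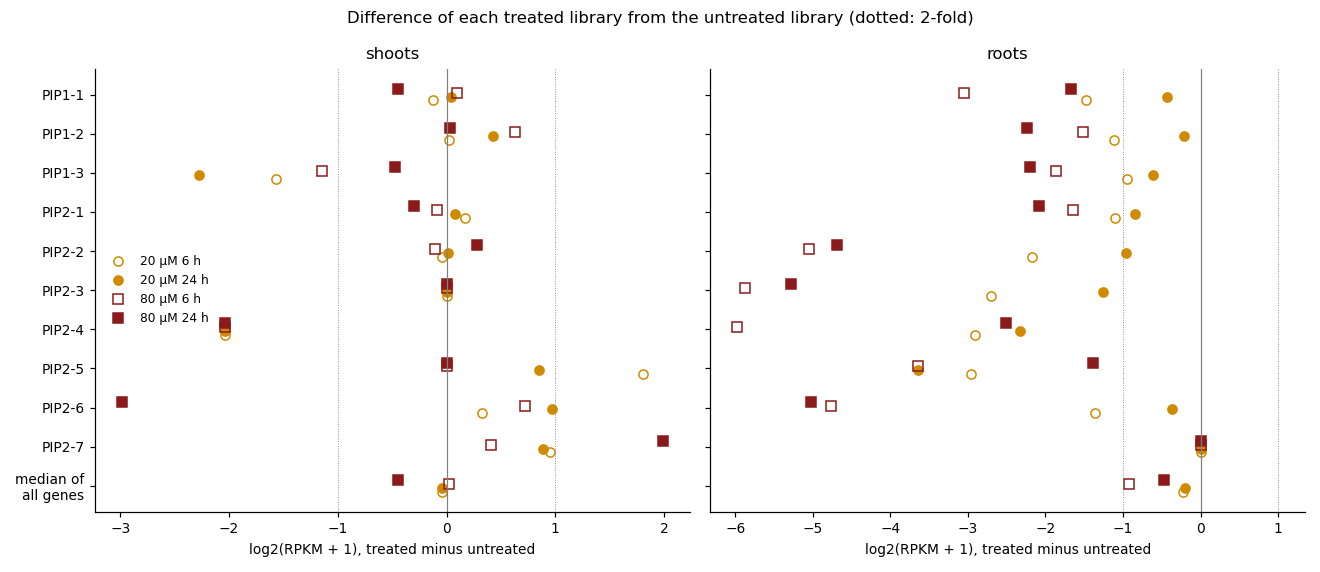
Difference of log2(RPKM + 1), treated minus untreated (horizontal axis), for each PIP gene and for the median of all genes (rows), shoots in the left panel and roots in the right panel, with 1 symbol per treated library. In roots all symbols of 9 genes lie left of 0, with means between −3.78 for PIP2-3 and −1.27 for PIP1-2, while the shoot symbols lie on both sides.

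The higher dose was set against the lower one at the same hour. In roots 80 µM was below 20 µM at both hours for the 8 PIP genes that reached 5 RPKM in treated roots. After median ratio scaling that held for 5 of the 8. PIP1-2 and PIP2-1 turned at 6 h, to 0.38 and 0.24 on the log2 scale, and PIP2-4 at 24 h, to 0.079. The share of all genes below at both hours was not computed, with or without scaling. Before scaling, the median difference of all genes was −0.56 at 6 h and −0.27 at 24 h. At least 2-fold lower were 5 of the 8 at 6 h, against 38.3% of all genes, and 7 of the 8 at 24 h, against 25.4%. At both hours it was 4 of the 8, PIP1-1, PIP2-2, PIP2-3 and PIP2-6, against 16.8% of 13863 genes, and 0 were higher, against 7.66%. After scaling it was 3 of the 8, against 9.69%, PIP1-1 being the one under 2-fold. By single hour the scaled counts were 4 of the 8 at 6 h, against 22.1%, and 5 of the 8 at 24 h, against 19.2%. PIP2-2, PIP2-3 and PIP2-6 reached 5 RPKM at 20 µM alone, which fixes their direction. At 6 h the same holds for PIP2-4. With 5 RPKM required on both sides, an alternative chosen after seeing the data, 1 of 5 members, PIP1-1, was at least 2-fold lower at both hours. By single hour that rule gave 1 of 4 members at 6 h and 4 of 5 members at 24 h. The share of all genes under that rule was not recorded, so these counts have no background beside them. PIP2-6 had 2.7 RPKM in 80 µM roots against 38.2 RPKM in 20 µM roots at the earlier hour, and 2.1 RPKM against 77.3 RPKM at the later hour. For PIP2-2 the earlier pair was 0.8 RPKM in 80 µM roots against 12.2 RPKM in 20 µM roots, and the later pair 1.3 RPKM against 29.5 RPKM. PIP2-4 differed least at 24 h, with 10.1 RPKM in 80 µM roots and 11.5 RPKM in 20 µM roots. The median difference over the members was −1.51, beside −0.43 over all genes.

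Over both tissues, with tissue and hour as blocks, limma called 0 of 17905 genes for dose, while 1846 genes, 10.3%, had an unadjusted p under 0.05. Of the 9 members tested, PIP2-6 (−2.91 ± 0.75) and PIP2-2 (−1.60 ± 0.70) had an unadjusted p under 0.05, and the smallest limma adjusted p of a member was 0.437. In a fit of the 4 treated root libraries alone, with hour as block and 1 residual degree of freedom, 5.4% of 13863 genes were higher and 8.91% lower at 80 µM. The 3 members lower there, PIP2-2, PIP2-3 and PIP2-6, are the ones whose direction the filter fixed, so their p is not given. PIP1-1 had −1.41 ± 0.47 with a limma adjusted p of 0.051. The within-tissue fit called 0 of 18667 genes for dose in roots and 0 members, with 2892 genes (15.5%) and 4 members at an unadjusted p under 0.05. In that fit the difference was −4.03 ± 1.07 for PIP2-6 (limma adjusted p = 0.245), −3.60 ± 0.54 for PIP2-3 (limma adjusted p = 0.160) and −3.30 ± 0.48 for PIP2-2 (limma adjusted p = 0.160). The clock readout of the 24 h root libraries differed too, −0.80 at 80 µM and 1.74 at 20 µM, and dose and that difference cannot be told apart.

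The later hour was set against the earlier one at the same dose. Such a pair differs in length of exposure and also in the hour of harvest within the day. With no untreated library at 6 h, the share of each in a difference could not be tested. The clock readout was −0.78 at 6 h and 1.74 at 24 h in 20 µM roots, and −1.09 and −0.80 in 80 µM roots. At 20 µM, roots at 24 h were above roots at 6 h for 8 of 8 PIP genes. The share of all genes above was not computed. The median difference was 0.95 over these members and 0.014 over all genes. At least 2-fold higher were PIP1-1, PIP2-2 and PIP2-3, which is 3 of 8 against 7.6% of 12484 genes. After median ratio scaling it was 2 of 8, against 6.4%, PIP1-1 being just under 2-fold. At 80 µM, 5 members reached 5 RPKM in either library, and 2 of them were at least 2-fold higher at 24 h, against 25.1% of 10652 genes. PIP1-1 had 60.8 RPKM at 24 h, against 22.7 RPKM at 6 h. PIP2-4 had 10.1 RPKM at 24 h, while its value at 6 h was a listed 0, so it entered through the later hour alone and had to be higher. The other 3, PIP1-2, PIP1-3 and PIP2-1, were lower at 24 h, by less than 2-fold. After scaling PIP1-2 and PIP2-1 were at least 2-fold lower, which is 2 of 5 against 27.9% of all genes. At least 2-fold higher after scaling was PIP2-4 alone, 1 of 5 against 12.9%. PIP1-1 was the 1 member at least 2-fold higher at both doses, against 2.32% of all genes, and after scaling 0 members were, against 1.4%. Limma over both tissues called 0 of 17905 genes for time, with 350 genes (1.95%) and 0 members at an unadjusted p under 0.05.

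In shoots the PIP genes did not go in 1 direction. Of the 7 that reached 5 RPKM, 1 was lower by any size in all 4 treated libraries, against 19.0% of 15408 genes, and 2 were higher in all 4, against 6.99%. At least 2-fold in all 4, 0 were lower and 0 higher, against 1.47% and 0.5% of all genes. In each single treated library 1 of the 7 was at least 2-fold lower, against 9.92%, 12.3%, 12.6% and 30.1% of all genes. This member was PIP1-3 in the first 3 libraries and PIP2-6 at 80 µM and 24 h. In that last library 1 member, PIP2-7, was also at least 2-fold higher, against 9.15%. After median ratio scaling PIP2-7 at 20 µM 6 h and PIP2-6 at 20 µM 24 h were at least 2-fold higher as well. That is 1 of the 7 in each, against 6.9% and 11.6% of all genes. With the 80 µM 24 h library left out, 1 member, PIP1-3, was at least 2-fold lower in the other 3, against 2.24% of all genes. The median of the mean differences was −0.04, beside −0.18 over all shoot genes, and it turned to 0.16 after median ratio scaling. PIP1-1, PIP2-1 and PIP2-2 varied little, with 142.5 to 208.8, 70.7 to 98.5 and 34.4 to 45.2 RPKM in treated shoots, against the 194.8, 87.5 and 37.1 RPKM of untreated shoots. The within-tissue limma fit called 0 of 18667 genes for treatment in shoots, with 332 genes (1.78%) and 0 PIP genes at an unadjusted p under 0.05.

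The member lower in all 4 treated shoot libraries was PIP1-3, at 20.5, 12.2, 27.9 and 44.8 RPKM in treated shoots, against 62.8 RPKM in untreated shoots. At 80 µM and 24 h its log2 difference of −0.48 turned to 0.15 after median ratio scaling, so that direction depends on the scaling. The 80 µM libraries were nearer to untreated than the 20 µM libraries were, the reverse of the order in roots. Those higher in all 4 were PIP1-2, by as little as 1.02-fold at 20 µM and 6 h, and PIP2-7, by at least 1.34-fold. PIP2-7 was highest at 80 µM and 24 h, with 84.4 RPKM against 20.5 RPKM untreated. The leaf photosynthesis genes also summed highest in that library, at 10437 RPKM against 4505 RPKM untreated, and their part in the PIP2-7 value was not tested.

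PIP2-6 departed most within the shoots. In 80 µM shoots at 24 h it was at 25.0 RPKM, 12.2% of the untreated 204.8 RPKM, while the other 3 treated libraries had 257.2, 402.0 and 338.8 RPKM. The gene ranked 31st among all shoot transcripts in the library labelled 20 µM 24 h and 2608th at 80 µM and 24 h. In that last library PIP2-7 was at 412% of untreated, and the clock readout was 5.83, against 3.19 in untreated shoots. The part of the clock difference in these values was not tested. With the libraries labelled 20 µM left out, the shoot counts by the 2-fold rule were again 0 lower and 0 higher.

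The other aquaporins give the family context. PIP2-8, the remaining PIP2 gene, was listed at 0 in 9 libraries and at 0.8 RPKM in roots at 20 µM and 6 h. Of 6 tonoplast aquaporins (TIPs, water channels of the vacuole membrane) that reached 5 RPKM in roots, 0 were at least 2-fold lower and 0 higher in all 4 treated libraries, with a median of −1.56. The NIPs are a subfamily that carries small solutes such as silicic acid and arsenite. Of 4 NIP genes 2 were lower and 0 higher by the same rule, against 6.97% and 4.66% of all root genes. These were NIP2-1 (Lsi1), with 59.7 RPKM in untreated roots and 18.7, 11.8, 0.4 and 1.7 RPKM in treated roots, and NIP3-1. NIP1-1 went the other way, with 0.2 RPKM in untreated roots and 9.6, 0.9, 3.9 and 19.7 RPKM in treated roots. It entered through treated libraries alone. After median ratio scaling 1 of the 4 NIP genes was at least 2-fold lower in all 4 libraries, against 4.25% of all genes. The TIP sum in roots was 772.3 RPKM untreated and 349.6, 634.9, 214.2 and 114.4 RPKM treated, while in shoots it was 424.9 RPKM untreated and 630.3, 920.4, 1005 and 334.8 RPKM treated. For tissue, limma called TIP1-2, TIP4-1 and TIP4-2 higher and TIP2-1 lower in shoots among 8 TIP genes tested, and NIP2-2 higher among 5 NIP and SIP genes. TIP2-1 was at most 1.5 RPKM in shoots, against 133.7 RPKM in untreated roots.

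The genes whose pattern was most like the mean log2 profile of the 10 PIP genes over the 10 libraries, among 8466 others that reached 20 RPKM, are described by Pearson's r. They were LOC_Os02g57630 (r = 0.962), LOC_Os01g61720 (r = 0.950), LOC_Os11g41890 (r = 0.949), LOC_Os05g48210 (r = 0.948) and LOC_Os08g38170 (r = 0.945), which the sources used here do not name. The points share their libraries and divide into 2 tissues. Between pairs of members r ran from −0.745 for PIP1-3 with PIP2-7 to 0.935 for PIP2-1 with PIP2-2.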

How the data were processed

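Poly(A) RNA from 10 groups of 1 library each was sequenced as paired-end reads from random-primed cDNA, per the labels' protocols. The authors deposited RPKM values, 1 table per library, to 1 decimal. BWA is named in the submitters' processing notes without a version, while the build, annotation and counting tool were not stated. The 10 miRNA tables were not used here. The members and the gene lists were chosen with earlier results of these data known.

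RPKM were taken as log2(RPKM + 1), where a difference understates the change of low genes. A gene was considered where it reached 5 RPKM in at least 1 library compared. Single libraries were compared by a 2-fold rule with no test. Models were fitted over all genes with limma 3.58.1 in R 4.3.3, using its trend option and the Benjamini-Hochberg method with a threshold of 0.05, and were tested on simulated data. Their residuals are not a spread between replicates, and the single untreated library of a tissue is taken to vary as the rest do. All 10 members, PIP2-8, aquaporins past the rules and the 5 genes of most similar pattern are named. NIP3-1 and NIP1-1 were named after their values were seen. Of 27 aquaporin identifiers, 25 matched a RefSeq name on the same chromosome, with 0 changes of order, and 0 MSU identifiers are listed there. Computations used Python 3.11.15, numpy 2.4.6 and pandas 2.3.3, and figures matplotlib 3.10.9. No sequences are shown.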

Additional observations from a re-analysis of the deposited data

Results flagged for a closer look

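PIP1-2 was lower in all 4 treated root libraries, with a mean log2 difference of −1.27 from untreated roots, and higher in all 4 treated shoot libraries, with a mean of 0.28 from untreated shoots. It was picked out because every treated library of each tissue went the opposite way. Its shoot differences were only 0.024 at 20 µM 6 h and 0.028 at 80 µM 24 h. They were 0.43 at 20 µM 24 h and 0.63 at 80 µM 6 h, and the 20 µM shoot libraries carry the doubt about their hour. In limma the difference between the tissues, roots minus shoots, was −1.55 ± 0.89 (SE) with an adjusted p of 0.877, so it did not pass.

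PIP1-3 was lower at 80 µM than at 20 µM at both hours in roots, with a mean log2 difference of −1.25, and higher at both hours in shoots, with a mean of 1.11. The difference between the tissues, roots minus shoots, was −2.36 ± 0.73 (SE) with a limma adjusted p of 0.697, and the 20 µM shoot libraries carry the doubt about their labels.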

How the results depend on the processing

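No paired analysis was possible because each group holds 1 library, so no replicate number forms a block, and the pairs in the limma fits are conditions. Of the values that answer a comparison, 160 alternative values stayed near the main value, 21 moved and 2 reversed. A count stayed when within a set factor of the main count, and 0 against 0 always stayed. A median stayed when it shifted by less than the SD of the members' medians over the library pairs. Of the other values, mostly single-gene, 374 kept their direction and call, 14 reversed, 9 lost their call, 7 gained one and 1 moved. In limma, shoots against roots called 5 members and 5392 genes. It called 3 and 2671 without the 20 µM libraries of both tissues, and 3 to 7 members and 3694 to 5209 genes with 1 condition left out. PIP1-3 lost its tissue call without the 20 µM libraries, at a limma adjusted p of 0.331. PIP2-3 and PIP2-4 lost theirs too, at 0.237 and 0.0585, and PIP2-3 lost it with no filter on low values, at 0.0613. For PIP2-3, PIP2-4 and PIP2-7 the 5 RPKM filter had fixed the direction of the tissue difference, so their calls do not test it. For 80 against 20 µM, 0 members and 0 genes were called over both tissues, against 3 and 1984 in roots alone, where the filter fixed the members' direction, and 0 and 0 for dose in roots in the within-tissue fit, and 0 to 19 genes with 1 pair left out. Treatment in roots called 0 genes, against 359 with no filter on low values. The cause of these shifts was not tested. By the 2-fold rule the root median of −2.88 became −1.58 with a pseudocount of 5, and 3 to 8 members were lower with 1 treated library left out. For 80 against 20 µM in roots the median of −1.51 became −2.32 with a pseudocount of 0.1 and −1.17 after median ratio scaling, with −2.23 to −1.81 and 5 to 7 members lower for 1 hour alone. In shoots 1 member was lower with no filter and 0 to 1 with 1 treated library left out. The shoot median of −0.04 became 0.16 after median ratio scaling and ran from −0.10 to 0.052 with 1 library left out, and the 80 µM 24 h sum became 117.6% of untreated. Shoots against roots had 0 to 1 members lower with 1 condition left out. Requiring 5 RPKM on both sides was an alternative chosen after seeing the data. Members past 2-fold then became 1 against 4 for dose in roots and 1 against 2 for higher in shoots. The share of all genes under that rule was not recorded.

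The reversed single-gene differences were all uncalled in limma. For dose, PIP1-3 reversed to 0.31 after median ratio scaling and ran from −0.69 to 0.44 with 1 pair left out, and PIP2-7 ran from −0.18 to 0.37. For time, PIP1-2 became 0.0012 and PIP1-3 0.011 with a pseudocount of 5, and PIP1-3 was 0.22 without the 20 µM shoot libraries. With 1 pair left out PIP1-2 ran from −0.31 to 0.23, PIP1-3 from −0.23 to 0.22, PIP2-6 from −1.11 to 0.46 and PIP2-7 from −0.020 to 0.53. Leaving libraries out of the within-tissue fit was not run.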
